A study of Homo sapiens with 9 samples.

Results

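Translation initiation factors bring the ribosome and the initiator tRNA to the start codon of an mRNA, and elongation factors then carry the ribosome along the coding sequence. Their genes were taken as every row of the deposited table whose symbol begins with EIF1 to EIF6, EEF1 or EEF2, leaving out the EIF2AK kinases. This gave 66 of the 23369 genes in the table, of which 65 are shown here and 1, which is Y-linked, is only counted. The pattern also catches 4 Argonaute genes, listed under their old names EIF2C1 to EIF2C4, and 3 pseudogene or readthrough rows (EIF3IP1, EEF1DP3 and EEF1E1-MUTED).

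The RNA came from H1155, an established human lung carcinoma line with neuroendocrine features. Cultures received DMSO as the vehicle, 1 µM cabozantinib or 1 µM foretinib from 24 h after plating, and were harvested after 4 h. Both compounds inhibit several kinases and share a quinoline and cyclopropane dicarboxamide scaffold; foretinib bears a morpholinopropoxy chain where cabozantinib has a methoxy group, and an additional fluorine on the phenyl ring joined to the quinoline through oxygen. Each of the 3 groups held 3 libraries, named here by the numbers in their titles (DMSO replicates 2, 4 and 5, cabozantinib replicates 3, 4 and 5, foretinib replicates 1, 2 and 4). All values come from a single cell line, and the labels call the samples biological triplicates without saying how the cultures were separated, so every test below measures only the spread between these libraries. Both drug groups are compared with the same 3 DMSO libraries, and each pair of comparisons shares a group.

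Values are normalised read counts, that is, a gene's read count divided by the authors' size factor for the library. The libraries held 26996023 to 34062153 reads assigned to genes. The 3 foretinib libraries had 10220 to 10856 genes above 0, against 11655 to 12823 in the other 6 libraries. All 10 neuroendocrine markers examined were in the table, with summed levels of 59839 to 62743 in DMSO, 68108 to 74015 in cabozantinib and 70159 to 74045 in foretinib. Of these, 9 in DMSO, 10 in cabozantinib and 9 in foretinib were at 10 or more in every library of the group. The 14 markers of leukocytes, fibroblasts, endothelium and red cells summed to 612 to 1349 per library over all groups, and PTPRC, CD3E, DCN, VWF, CDH5 and HBB were at 0 in all 9. Of the 14, 1 in DMSO, 2 in cabozantinib and 1 in foretinib were at 10 or more in every library of the group. In bulk RNA, fewer cells and less RNA per cell cannot be told apart.

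In the cell, eIF2 carries the initiator tRNA to the small ribosomal subunit, eIF3 holds the complex together, and the cap-binding complex eIF4F (eIF4E, eIF4G and the helicase eIF4A) loads it on the mRNA. The kinase mTOR, which lies downstream of many growth factor receptors, frees eIF4E by phosphorylating the 4E-BP repressors and favours translation of mRNAs that start with a run of pyrimidines, called TOP mRNAs. Many elongation factor mRNAs are TOP mRNAs, so this family is where translational and transcript-level responses to kinase inhibition are often examined together. The data here hold RNA levels only.

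The RNA of the translation factors stayed close to its DMSO level in both drug groups. The summed normalised read count of the 65 genes shown was 612413 ± 14404 (SD, n = 3) in DMSO, 598793 ± 14041 in cabozantinib and 615296 ± 13962 in foretinib. Relative to DMSO the sum was 1.00 with foretinib and 0.978 with cabozantinib, the ratio of foretinib to cabozantinib was 1.03, and the libraries of the 3 groups overlapped. These genes took 2.13% to 2.29% of all reads in every library. EEF1A1 alone made up 22.9% to 28.2% of the sum, and without EEF1A1 and EEF2 the sum was 400465 ± 8077 in DMSO, 395577 ± 9776 in cabozantinib and 394286 ± 8027 in foretinib.

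Of the 65 genes, 57 had a normalised read count of 10 or more in at least 3 libraries and were tested in a single limma-trend model of all 9 libraries and 12642 genes. None passed a Benjamini-Hochberg adjusted p of 0.05 in any comparison, and this model called 0 of the 12642 genes (0%) in any of them. At an unadjusted p below 0.05, 3 of 57 genes (5.26%) stood out with foretinib relative to DMSO, where 9.07% of all tested genes did: 1 above (2.17% of all genes) and 2 below (6.9%). With cabozantinib relative to DMSO the count was 0 of 57, beside 1.31% of all tested genes (0.878% above and 0.435% below). Between the drugs it was 1 of 57 (1.75%), which was above in foretinib, beside 9.9% of all tested genes (1.83% above and 8.08% below). edgeR and DESeq2 on the recovered whole reads also called 0 of the 57 in each comparison, although DESeq2 called 656, 49 and 621 genes of the whole table. With edgeR the counts at an unadjusted p below 0.05 were 1, 0 and 1 of 57, and with DESeq2 they were 4, 1 and 2. Leaving out 1 library at a time moved them between 0 (without DMSO replicate 2) and 6 (without foretinib replicate 2) for foretinib against DMSO, between 0 and 2 for cabozantinib against DMSO, and between 0 (without cabozantinib replicate 3) and 6 (without foretinib replicate 1 or 2) between the drugs. The smallest adjusted p of any tested member in any setting was 0.0530, for EIF5 with DESeq2 in foretinib against DMSO.

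The median fold change was small, and that of abundant members was precise, while single members with a mean below 1000 reached from -3.89 to 1.95 over the 3 comparisons. The median log2 fold change, on the log2(value + 1) scale, was -0.065 with foretinib and 0.056 with cabozantinib, both relative to DMSO, and -0.078 between the drugs, as foretinib minus cabozantinib. Over all tested genes these medians were -0.34, 0.041 and -0.44, and the first of these became -0.044 with quantile normalisation and -0.10 with a pseudocount of 200. Genes with a mean below 1000 had a median of -1.57 for foretinib against DMSO, and those between 3000 and 10000 had -0.00061. Set against all tested genes in the same band of mean level, the members' median was -0.062, 0.038 and -0.042 in the 3 comparisons. The 95% interval lay inside a 2-fold change in either direction for 32, 34 and 32 of the 57 genes in the 3 comparisons, or 56.1%, 59.6% and 56.1%. For all tested genes the shares were 13.5%, 16.1% and 13.1%. The share went with level: all 16 members with a mean of 10000 or more had such an interval in every comparison, as did 16, 18 and 15 of the 18 with a mean between 3000 and 10000. Among the 9 members below 1000 and the 14 between 1000 and 3000, only EIF2B1 did, in foretinib against cabozantinib.

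**Figure D1:**
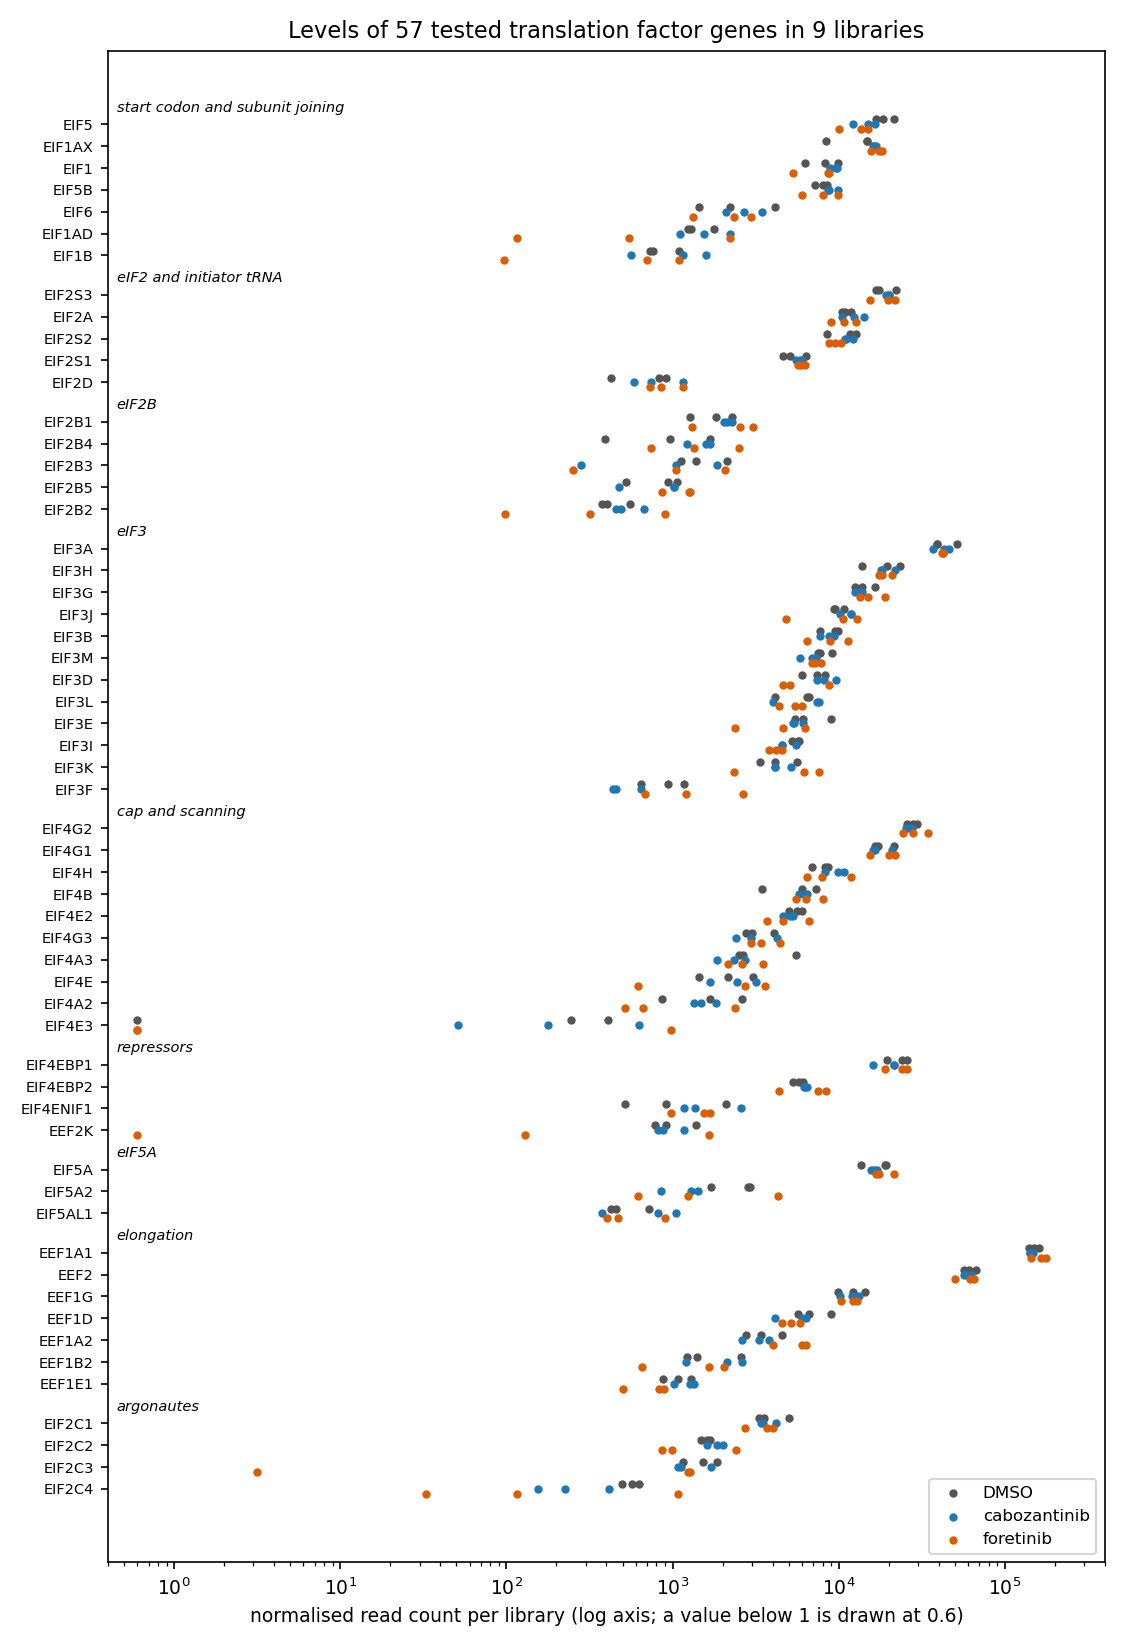
Normalised read counts (x axis, log scale; a value below 1 is drawn at 0.6) of the 57 tested genes, grouped by role and ordered by mean level within a role; each dot is 1 of 9 libraries, coloured by treatment. Abundant genes have tight, overlapping groups, and the widest scatter is in foretinib libraries of genes near 1000, such as EEF2K and EIF2C3.

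**Figure D2:**
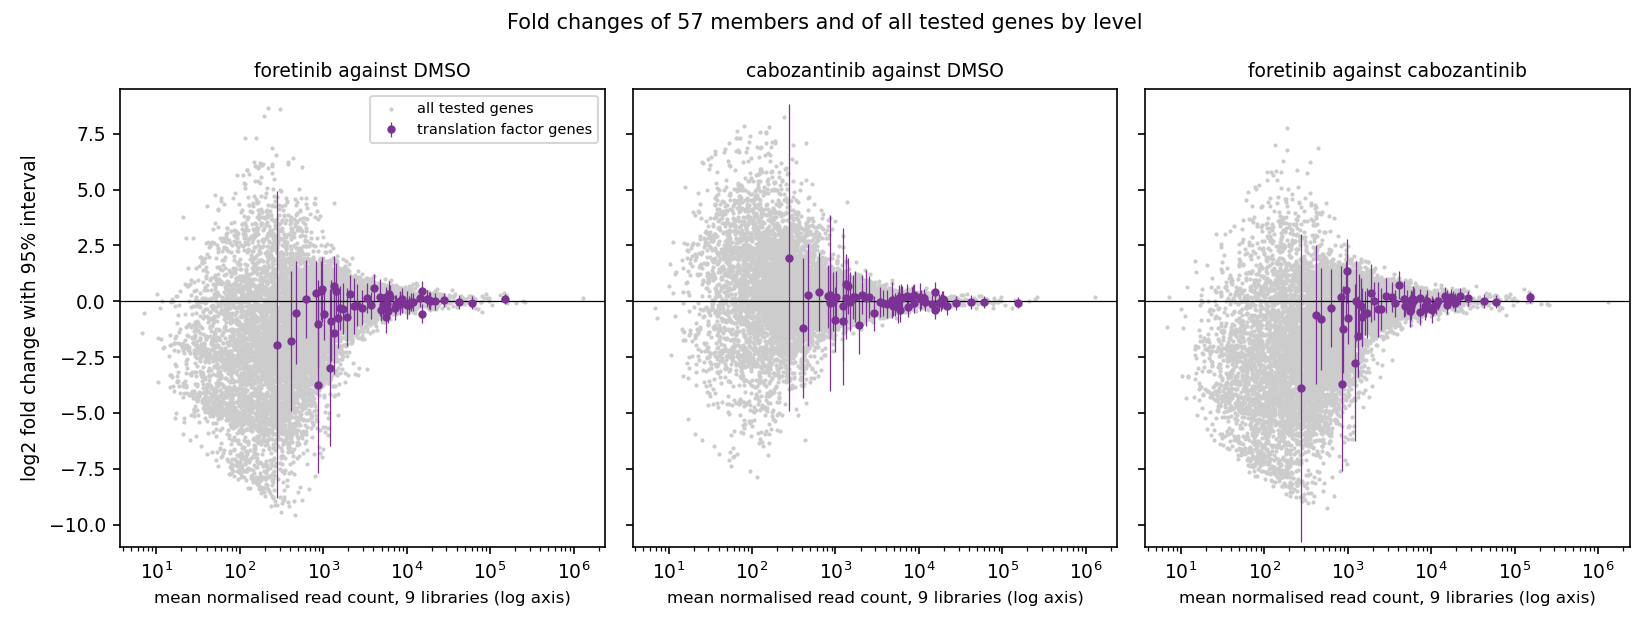
Log2 fold change (y axis, on the log2(value + 1) scale) against mean normalised read count over 9 libraries (x axis, log scale) in the 3 comparisons; grey dots are the 12642 tested genes and purple dots the 57 translation factor genes with 95% intervals. The intervals narrow from left to right, and all 16 members at 10000 or more lie within 1 log2 unit of 0.

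Start codon recognition and subunit joining are the work of EIF1, EIF1AX, EIF5 and EIF5B, with EIF6 keeping the subunits apart before they join. EIF5, the activator of GTP hydrolysis by eIF2, had the smallest p of all members in foretinib against DMSO. Its normalised read count was 21399, 18504 and 16694 in DMSO, 15058, 16568 and 12185 in cabozantinib and 10093, 13664 and 15115 in foretinib. All foretinib and all cabozantinib libraries thus lay below the lowest DMSO library. The log2 fold change was -0.55 (95% interval -0.97 to -0.14, adjusted p = 0.432) for foretinib and -0.37 (-0.78 to 0.037, adjusted p = 1.00) for cabozantinib. The 2 drug groups overlapped, with a log2 difference of -0.18 (-0.59 to 0.23). EIF5 lies beside a divergent transcript, EIF5-DT, and hosts a small nucleolar RNA, and the strand setting of the counting is not given in the sources used here.

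EIF1AX, which with EIF1 holds the scanning complex open, went the other way. It stood at 8431, 14836 and 14909.8 in DMSO, 16061, 16848 and 16305 in cabozantinib and 17546, 15669 and 18212 in foretinib, so that both drug groups lay above all 3 DMSO libraries. Most of the gap came from DMSO replicate 2, at 8431. The log2 fold change for foretinib was 0.47 (0.031 to 0.92, adjusted p = 0.528), and 0.20 without that library. For cabozantinib it was 0.41 (-0.030 to 0.86), and 0.14 without it. An annotated antisense gene, EIF1AX-AS1, overlaps EIF1AX, and reads of the pair cannot be told apart without strand.

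The remaining genes of this step differed less. EIF5B, the GTPase that joins the subunits, was at 8004, 7173 and 8509 in DMSO and 8668, 8783 and 9855 in cabozantinib, with no overlap, but the log2 fold change was only 0.21 (-0.24 to 0.66). EIF1, which guards start codon choice, was at 8653, 5309.6 and 8791 in foretinib, below the cabozantinib values of 8922, 9652 and 9711, with a log2 difference of -0.35 (-0.86 to 0.16, adjusted p = 0.583), and -0.11 without foretinib replicate 2. Its DMSO values, 6285, 9944 and 8268, overlapped both drug groups. EIF1B, a paralogue of EIF1, ranged from 97 to 1095 in foretinib and from 566 to 1599 in cabozantinib. EIF1AD, a relative of EIF1A found in the nucleus, scattered among the foretinib libraries, at 548, 116 and 2216, against 1293, 1234 and 1774 in DMSO and 1109, 1539.7 and 2225 in cabozantinib. EIF6 ranged from 1334 to 4117 over the 9 libraries, with all 3 groups overlapping.

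**Figure D3:**
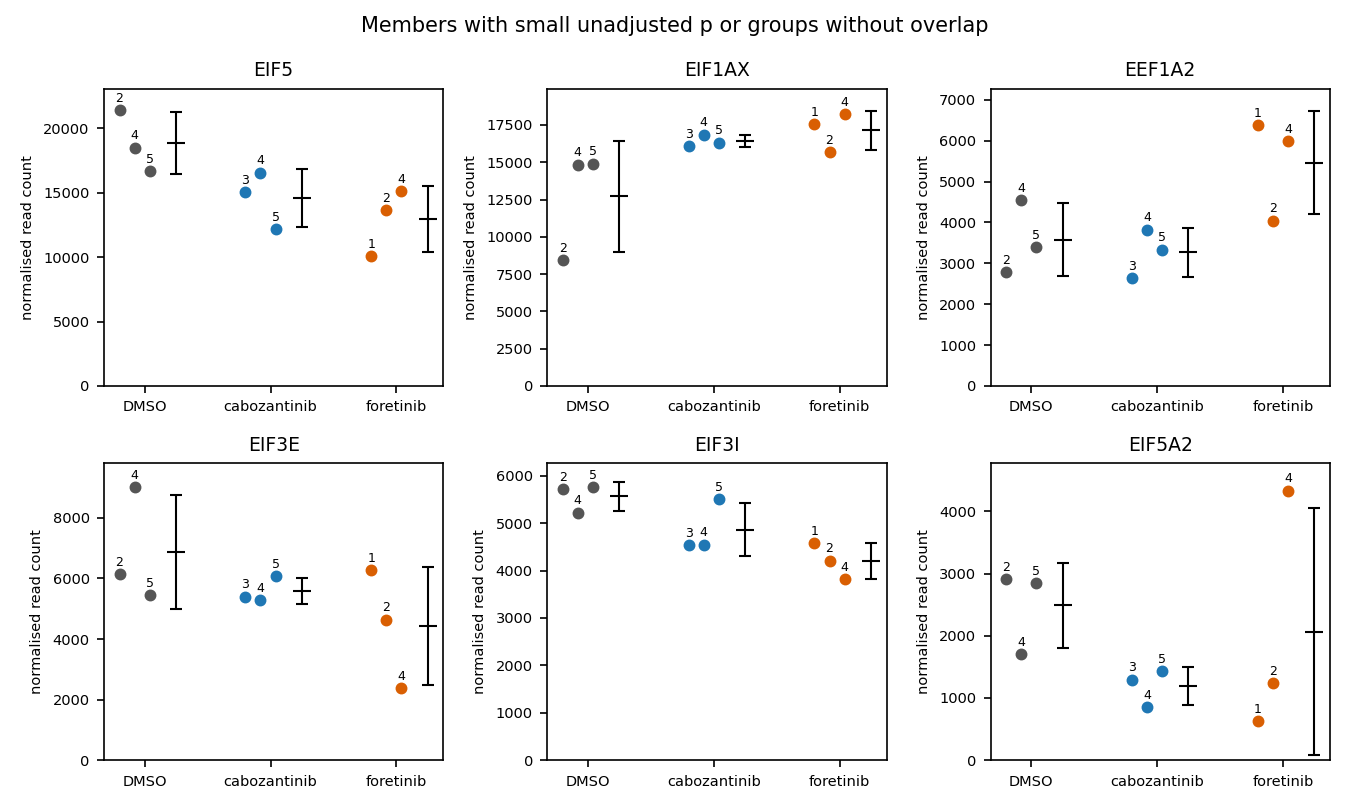
Normalised read counts (y axis, linear from 0) of 6 genes by treatment; numbered dots are libraries and the bars to their right give the mean and SD of 3. EIF5 and EIF3I are below DMSO in all 3 foretinib libraries, EIF1AX is above DMSO in all 6 drug libraries, and the 3 foretinib libraries of EIF5A2 spread from 622 to 4333.

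The eIF2 complex delivers the initiator tRNA, and its phosphorylated alpha subunit, encoded by EIF2S1, is the switch of the integrated stress response. EIF2S1 was at 4631, 6357 and 5062 in DMSO, 5815, 6019 and 5541 in cabozantinib and 5714, 6245 and 5959.7 in foretinib. The log2 fold change was 0.17 for foretinib (-0.28 to 0.62) and 0.13 for cabozantinib (-0.32 to 0.58). The DMSO libraries spanned a wider range than the gap between group means. EIF2S3, the gamma subunit that binds GTP and the tRNA, averaged 18806 ± 2896 in DMSO, 19820.01 ± 419 in cabozantinib and 18973 ± 3245 in foretinib (SD, n = 3). EIF2S2, the beta subunit, was at 10295, 9499 and 8770.2 in foretinib, below all cabozantinib values of 10996, 12125 and 11089, with a log2 difference of -0.26 (-0.67 to 0.14, adjusted p = 0.604). Its DMSO libraries reached from 8454 to 12785 and overlapped both. EIF2A and EIF2D, which can deliver tRNA to the ribosome without eIF2, overlapped in all 3 comparisons, EIF2A at 9007 to 14143 and EIF2D at 428 to 1155. The 5 genes of this role all had log2 fold changes above 0 for cabozantinib, from 0.077 to 0.22, and 3 of 5 did for foretinib. Of the 12642 tested genes, 6735 were above 0 for cabozantinib and 4559 for foretinib, both against DMSO.

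The exchange factor eIF2B recharges eIF2 with GTP, and its 5 subunits are encoded by EIF2B1 to EIF2B5. Their summed normalised read count was 5631 ± 1199 in DMSO, 6085 ± 1422 in cabozantinib and 6528 ± 1261 in foretinib (SD, n = 3). All 5 genes were low, none had an interval inside a 2-fold change against DMSO, and none of the pairs of groups separated. EIF2B4, the delta subunit, was at 1675, 966 and 393 in DMSO, 1590.3, 1683 and 1222 in cabozantinib and 1348, 2519 and 738 in foretinib. EIF2B3, the gamma subunit, was at 2119, 1382 and 1119.9, 1047, 1842 and 279 and 249.96, 1054 and 2057 in the same order. In both genes the range within a single group covered more than the difference between any group means. Per kilobase of the principal transcript, DMSO levels ran from 103 ± 21.9 for EIF2B2 to 928 ± 312 for EIF2B3.

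The eIF3 scaffold is the largest initiation factor, with subunits EIF3A to EIF3M, and 12 of its 14 rows were tested. EIF3A, the core subunit, had 51827, 39310.1 and 38974 normalised reads in DMSO, 36993, 43289 and 46066 in cabozantinib and 41621, 42252 and 42697 in foretinib. EIF3A had a log2 fold change of -0.027 for foretinib (-0.33 to 0.28) and -0.035 for cabozantinib (-0.34 to 0.27). The 3 foretinib libraries differed from each other by less than the DMSO libraries did. For the role as a whole the sum was 134429 ± 6116 in DMSO, 131493 ± 8195 in cabozantinib and 129446 ± 4931 in foretinib.

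Among the eIF3 subunits, EIF3I and EIF3E lay lowest in foretinib. EIF3I, a propeller-shaped subunit at the edge of the complex, was at 5715, 5219 and 5756 in DMSO, 4538, 4542 and 5510.4 in cabozantinib and 4579.9, 4208 and 3824 in foretinib. The foretinib libraries lay below all DMSO libraries, with a log2 fold change of -0.41 (-0.88 to 0.066, adjusted p = 0.531). EIF3E, a subunit that contacts the mRNA cap-binding complex, was at 6143, 9007 and 5444 in DMSO, 5404, 5275 and 6080.2 in cabozantinib and 6266, 4645 and 2378 in foretinib. Its log2 fold change for foretinib was -0.71 (-1.41 to -0.0082, adjusted p = 0.531), and -0.31 without foretinib replicate 4. That library gave the lowest EIF3E value of all 9, and foretinib replicate 1 lay inside the DMSO range.

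EIF3F, EIF3D and EIF3M differed between the drugs or from DMSO without passing the test. EIF3F was at 646, 457 and 437 in cabozantinib and 1201, 681 and 2641 in foretinib, a log2 difference of 1.35 (-0.087 to 2.79, adjusted p = 0.513). The groups did not overlap, but the difference was 0.84 without foretinib replicate 4, and DMSO, at 944, 647 and 1169, overlapped foretinib. EIF3D, the subunit that can itself bind the cap, was at 7443, 8152 and 9624 in cabozantinib and 8747, 4599.9 and 5118 in foretinib, with a log2 difference of -0.50 (-1.05 to 0.047). Foretinib replicate 1 lay inside the cabozantinib range. EIF3M was at 6883, 7319.7 and 5879 in cabozantinib against 9077, 7499.8 and 7682 in DMSO, without overlap, at a log2 fold change of -0.27 (-0.68 to 0.14). The other subunits, EIF3B, EIF3G, EIF3H, EIF3J, EIF3K and EIF3L, had overlapping groups in every comparison and log2 fold changes between -0.37 and 0.24.

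The cap-binding and scanning genes include the scaffolds EIF4G1 to EIF4G3, the cap-binding protein EIF4E with its relatives, and the helicase subunit EIF4A with its helpers EIF4B and EIF4H. EIF4G1 was at 17344, 16475 and 21459.7 in DMSO, 16008, 21002 and 16585 in cabozantinib and 21849, 15469.8 and 19972 in foretinib. This is a log2 fold change of 0.046 for foretinib (-0.34 to 0.43) and -0.046 for cabozantinib (-0.43 to 0.34). EIF4G2, a scaffold that lacks the eIF4E binding site, made up 60.2% ± 3.31 of the summed EIF4G1 and EIF4G2 reads in DMSO, 59.7% ± 4.01 in cabozantinib and 60.0% ± 7.88 in foretinib (SD, n = 3). Per kilobase of transcript this share was 67.6%, 67.1% and 67.3%. The balance of these scaffolds thus differed between groups by less than its spread within a group.

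EIF4E is the subunit on which many growth signals converge. Its level was 1448, 3046 and 2164 in DMSO, 2429, 3181 and 1684 in cabozantinib and 3609, 616 and 2739 in foretinib, a wide scatter. The log2 fold change for foretinib was -0.22 (-1.46 to 1.03) and turned to 0.57 without foretinib replicate 2, which held the lowest value. For cabozantinib it was 0.15 (-1.10 to 1.39), and -0.13 without DMSO replicate 2. No direction can be given for EIF4E at this spread. EIF4E2, a cap-binding protein tied to repression of specific mRNAs, was steadier and averaged 5548 ± 512 in DMSO, 5003 ± 351 in cabozantinib and 4990.1 ± 1499 in foretinib.

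EIF4A3, a helicase of the exon junction complex, was at 5569, 2508 and 2658 in DMSO and 1863, 2713 and 2353 in cabozantinib, with a log2 fold change of -0.55 (-1.34 to 0.24, adjusted p = 1.00). DMSO replicate 2 set most of that gap, and without it the value was -0.18. EIF4A2, a paralogue of EIF4A1, ranged from 515 to 2629 with all groups overlapping. EIF4B, which helps eIF4A unwind leaders, averaged 5573 ± 1940.4 in DMSO, 6133 ± 340.5 in cabozantinib and 6659.7 ± 1260.4 in foretinib, and EIF4H, another helper of eIF4A, was at 7925 ± 932, 9680.3 ± 1309.98 and 8732 ± 2794.

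EIF4A1, usually the most abundant eIF4A gene in dividing cells, was listed at 0 in all 9 libraries. In the GENCODE 29 transcripts, every 50-base stretch of EIF4A1 is also found in a transcript of another gene, and 83.0% are found in the readthrough gene SENP3-EIF4A1. That readthrough row was itself nearly empty, from 0 to 140.0 over the 9 libraries. EIF3C and EIF3CL, near-identical copies that share 96.8% and 98.7% of their 50-base stretches with each other, were also listed at 0 in all 9 libraries. EIF4EBP3, at 1 in a single DMSO library and 0 elsewhere, shares 71.8% with the readthrough gene ANKHD1-EIF4EBP3, which was listed at 0. Whether these values reflect low RNA or reads that were not assigned in the counting was not tested. No RNA level is given for these genes, and they did not enter the model. EIF3IP1 and EEF1E1-MUTED were at 0 throughout as well, while EEF1DP3 was above 0 only in DMSO replicate 5 and EIF4E1B only in cabozantinib replicate 3.

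Repressors of translation form a small group of the family. EIF4EBP1, the mTOR substrate that sequesters eIF4E, was at 23994, 25866 and 19445 in DMSO, 21649, 21524 and 16111 in cabozantinib and 24032, 25919 and 19133 in foretinib. Its log2 fold change was -0.0060 for foretinib (-0.39 to 0.37), the value nearest 0 of the family, and -0.23 for cabozantinib (-0.61 to 0.15), which was -0.088 without cabozantinib replicate 5. EIF4EBP2, its paralogue, was at 5297, 6064 and 5777, 6432, 6244 and 6170.2 and 8449, 7482 and 4349.6 in the same order. Cabozantinib did not overlap DMSO for EIF4EBP2, at a log2 fold change of 0.14 (-0.40 to 0.68). Per kilobase of transcript, EIF4EBP1 stood at 22649 ± 3237 in DMSO and EIF4E at 193 ± 69.4. On that scale EIF4E made up 0.846% ± 0.274 of the summed EIF4E and EIF4EBP1 level in DMSO, 1.06% ± 0.200 in cabozantinib and 0.924% ± 0.620 in foretinib. By reads, without division by length, the share was 8.75% ± 2.66, 10.8% ± 1.82 and 9.30% ± 6.05 in the same order. The repressor thus outweighed its partner in every group on both scales, but the size of the gap depends on the transcript lengths used.

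EEF2K, the kinase that stops elongation by phosphorylating eEF2, had the most negative log2 fold change of the family in foretinib against DMSO, with a wide interval. It was at 788, 1385 and 917 in DMSO and 819, 881 and 1174 in cabozantinib. In foretinib it was at 0.822, 1667 and 129.7, so that replicate 1 held a single read while replicate 2 held the highest value of all 9 libraries. The log2 fold change for foretinib against DMSO was -3.77 (-7.70 to 0.16, adjusted p = 0.531), -1.10 without foretinib replicate 1 and -0.78 with DESeq2. The ratio of the group means was 0.582. EIF4ENIF1, which carries eIF4E into the nucleus, ranged from 520 to 2590 with all groups overlapping.

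**Figure D4:**
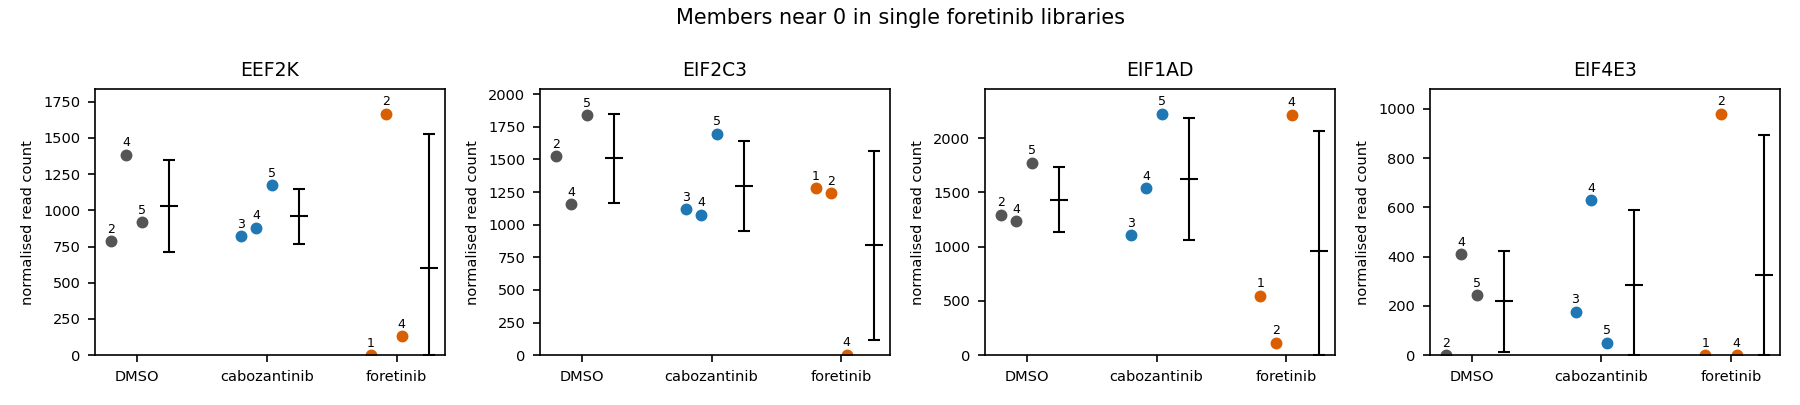
Normalised read counts (y axis, linear from 0) of EEF2K, EIF2C3, EIF1AD and EIF4E3 by treatment; numbered dots are libraries and the bars give mean and SD of 3, with the lower end stopped at 0. In EEF2K, EIF2C3 and EIF4E3 at least 1 foretinib library lies near 0, and the lowest of EIF1AD is at 116. In each gene another foretinib library lies within or above the DMSO range.

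Single libraries near 0 beside others at the DMSO level were seen in several low members. EIF4E3, a minor cap-binding relative, was at 0, 409.8 and 245 in DMSO, 177, 629.8 and 51.1 in cabozantinib and 0.822, 980.5 and 0 in foretinib. EIF2C4 was at 32.9, 116 and 1075 in foretinib and 495, 626 and 574 in DMSO. Among the 14 members with a mean of 1000 to 3000, the median coefficient of variation between libraries was 34.8% in DMSO, 25.1% in cabozantinib and 59.5% in foretinib. All tested genes at that level gave 28.4%, 24.5% and 49.8%, so the wide foretinib scatter was shared with the rest of the table. For the 16 members at 10000 or more it was 14.6%, 7.01% and 14.4%, beside 12.3%, 10.0% and 16.7% for all genes.

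The eIF5A genes encode a factor that helps the ribosome over difficult peptide bonds and carries the modified residue hypusine. EIF5A was at 19197, 18981 and 13613 in DMSO, 16414, 15628 and 16940.4 in cabozantinib and 17589, 16784 and 21521 in foretinib, with log2 fold changes of 0.12 (-0.25 to 0.49) and -0.064 (-0.43 to 0.31) for foretinib and cabozantinib. EIF5A2, a paralogue with restricted expression in normal tissue, was at 2912, 1707 and 2849.6 in DMSO and 1295, 850.1 and 1427 in cabozantinib, with no overlap. Its log2 fold change of -1.06 for cabozantinib (-2.36 to 0.25, adjusted p = 1.00) was a ratio of means of 0.478. In foretinib EIF5A2 spanned 622, 1241 and 4333 and covered both other groups. EIF5A2 supplied 12.9% ± 4.54 of the summed EIF5A and EIF5A2 reads in DMSO, 6.75% ± 1.39 in cabozantinib and 9.02% ± 6.92 in foretinib. EIF5AL1, an intronless copy, ranged from 377 to 1056, and 30.1% of the 50-base stretches of EIF5A are also found in it.

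Elongation factors were the most abundant members. EEF1A1, which brings aminoacyl-tRNA to the ribosome, had 139504, 160339 and 151005 normalised reads in DMSO, 140966, 148399 and 141636 in cabozantinib and 165406, 176958 and 143086 in foretinib. Its log2 fold change was 0.10 for foretinib (-0.13 to 0.34), which quantile normalisation turned to -0.063, and -0.063 for cabozantinib (-0.30 to 0.17). EEF2, the translocase, was at 67156, 60909 and 56928, 56831, 59404 and 62413 and 50172, 61774 and 65632 in the same order. For EEF2 the log2 fold change was -0.065 for foretinib (-0.34 to 0.21) and -0.048 for cabozantinib (-0.33 to 0.23). The groups of both genes overlapped, and 26.0% of the 50-base stretches of EEF1A1 are also found in the pseudogene EEF1A1P5. Per kilobase of transcript, EEF1A1 led the whole family in DMSO at 33839.9 ± 2350.00, followed by EIF4EBP1 at 22649 ± 3237 and EEF2 at 19489 ± 1629, and the last 2 did not differ beyond their spread.

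EEF1A2 is the paralogue of EEF1A1 that muscle and neurons use, and it gave the smallest p of the family between the drugs. It was at 2783, 4551 and 3404 in DMSO, 2632, 3828 and 3337 in cabozantinib and 6376, 4043 and 5984 in foretinib. The foretinib libraries lay above all cabozantinib libraries, and 2 of 3 lay above all DMSO libraries. The log2 difference was 0.73 against cabozantinib (0.11 to 1.36, adjusted p = 0.45) and 0.61 against DMSO (-0.013 to 1.24, adjusted p = 0.531). Between cabozantinib and DMSO it was -0.12 (-0.75 to 0.51). As a share of the EEF1A1 and EEF1A2 reads together, EEF1A2 was 2.31% ± 0.412 in DMSO, 2.22% ± 0.349 in cabozantinib and 3.32% ± 0.953 in foretinib. Foretinib replicate 2, at 2.23%, lay inside the range of the other groups, while replicates 1 and 4 were at 3.71% and 4.01%.

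The eEF1B complex reloads eEF1A with GTP and is built from the products of EEF1B2, EEF1D and EEF1G. EEF1G was at 12182, 14339 and 9864 in DMSO, 13277, 11959.7 and 10135 in cabozantinib and 12264, 10387 and 12885 in foretinib, with log2 fold changes of -0.023 (-0.43 to 0.38) and -0.033 (-0.44 to 0.37) for foretinib and cabozantinib. Of its 50-base stretches, 98.7% are also found in other annotated genes, and 96.7% in AP002990.1 alone. EEF1D was at 9021, 6665 and 5696, 6039, 6368 and 4114 and 5868, 4542 and 5179 in the same order, with log2 fold changes of -0.44 (-0.98 to 0.10) and -0.37 (-0.91 to 0.17). DMSO replicate 2, at 9021, was the highest EEF1D value of all, and without it these values were -0.25 and -0.19. The cabozantinib value was -0.17 without cabozantinib replicate 5. EEF1B2 was at 1227, 1397 and 2567, 2114, 1205 and 2629 and 1664, 657 and 2036, with no order between groups, and 35.0% of its 50-base stretches are also found in the pseudogene EEF1B2P3. The 3 subunits therefore did not move together beyond their spread. EEF1E1, an auxiliary subunit of the tRNA synthetase complex, was at 887, 502 and 829 in foretinib, below all cabozantinib values of 1280.3, 1014 and 1345, with a log2 difference of -0.75 (-1.92 to 0.42).

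TOP mRNAs begin with a cytidine followed by pyrimidines, and the members' annotated starts were read to see which have such a run. The RefSeq promoter table (GRCh38.p14) held 52 of the 65 members. A tract was counted where a start base C was followed by at least 4 bases that are each C or T, on the gene's strand only. This was found in 12 of 52 members (23.1%), against 5.14% of the 27305 genes in that table. Below are 5 starts with a tract and 3 without, chosen from the elongation factors, the cap-binding genes and the genes singled out above; each line holds 10 bases before the start and 20 from it, 5′ to 3′, with the tract in capitals.
EEF1A1: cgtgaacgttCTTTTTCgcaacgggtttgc
EEF2: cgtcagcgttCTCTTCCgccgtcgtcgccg
EEF1B2: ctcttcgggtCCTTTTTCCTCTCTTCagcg
EIF3F: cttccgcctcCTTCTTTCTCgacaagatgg
EIF4B: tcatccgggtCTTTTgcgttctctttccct
EIF1AX: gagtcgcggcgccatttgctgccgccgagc
EIF4E: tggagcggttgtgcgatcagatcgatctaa
EIF3I: ttccggtcttactcacgttgcggccttcct

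These windows are chr6:73521013-73521042 (minus strand) for EEF1A1, chr19:3985444-3985473 (minus) for EEF2, chr2:206159885-206159914 (plus) for EEF1B2, chr11:7987327-7987356 (plus) for EIF3F and chr12:53006446-53006475 (plus) for EIF4B. Those without a tract are chrX:20141819-20141848 (minus) for EIF1AX, chr4:98929114-98929143 (minus) for EIF4E and chr1:32222397-32222426 (plus) for EIF3I. The tract was 7 bases long in EEF1A1 and EEF2, 10 in EIF3F and 16 in EEF1B2, which has 2 starts in the table, 1 of them with the tract. The deposited reads do not show which start these cells used, and a match in the letters is a description of the annotation only. A tract also stood at the starts of EIF2A, EIF2D, EIF2S3, EIF3D, EIF3K, EIF3M and EIF4A2.

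Members with a tract at the start were set beside those without it, with no test and no matching by level. The median log2 fold change of the 12 with a tract was -0.017 with foretinib and 0.074 with cabozantinib, both relative to DMSO, and 0.043 between the drugs. For the 35 tested members of the promoter table without it the medians were -0.17, 0.13 and -0.18. None of the 12 and none of the 35 passed the adjusted p of 0.05, and 0 and 2 had an unadjusted p below 0.05 for foretinib against DMSO. A list of 9 members known as TOP mRNAs (EEF1A1, EEF1B2, EEF1D, EEF1G, EEF2, EIF3E, EIF3F, EIF3H and EIF4B) had medians of -0.023, -0.048 and -0.017 in the 3 comparisons. The other 48 tested members had -0.12, 0.082 and -0.15. Of these 9, 6 were in the promoter table and 5 had a tract; EEF1G was in the table without one and so counts among the members without a tract. Their summed level was 265254 ± 12765 in DMSO, 254065 ± 3842.5 in cabozantinib and 270975 ± 12874 in foretinib (SD, n = 3).

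**Figure D5:**
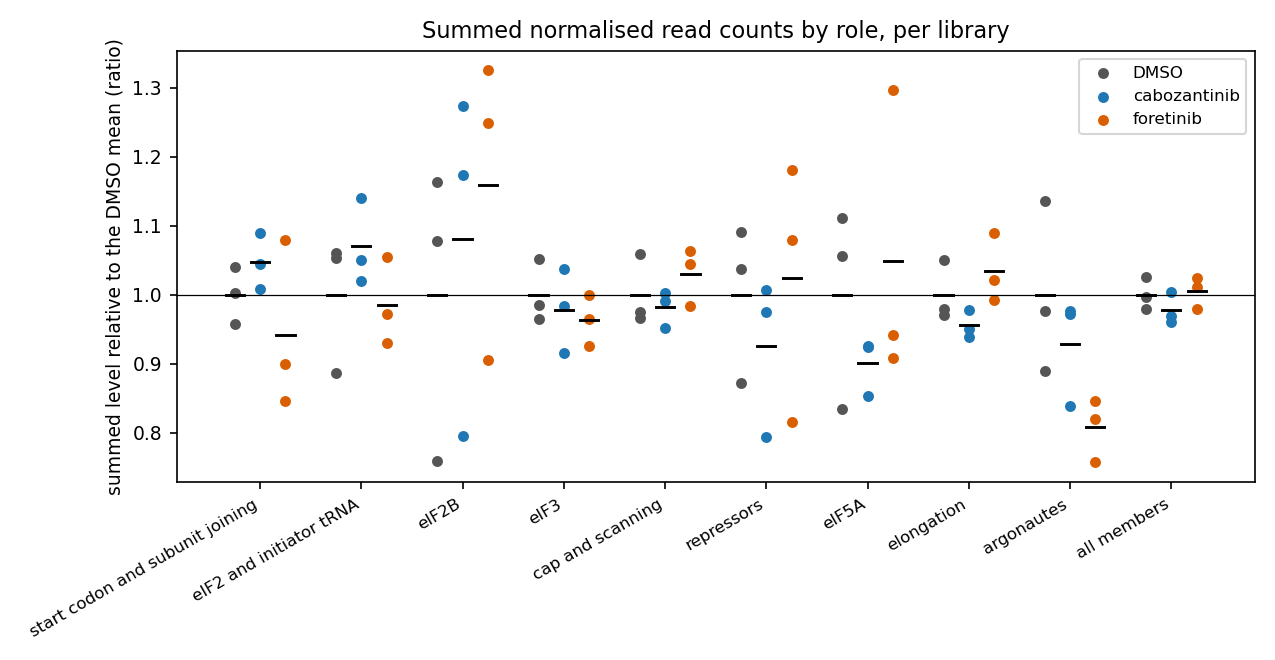
Summed normalised read count of each role in each library, divided by the mean of the 3 DMSO libraries (y axis, ratio; the axis does not start at 0); dots are libraries and short bars group means. The sum of all members lies between 0.960 and 1.03 in every library, and the Argonaute genes are the only role whose 3 foretinib libraries lie below all DMSO libraries.

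The Argonaute genes are members by their old symbols only; they bind small RNAs and repress mRNAs. Their summed level was 7624 ± 951 in DMSO, 7082 ± 598 in cabozantinib and 6157 ± 350 in foretinib (SD, n = 3), and the foretinib libraries, at 5769 to 6449.7, lay below the DMSO libraries, at 6779.5 to 8654. EIF2C1 (AGO1), the most abundant, was at 5018, 3326 and 3537 in DMSO, 3429, 4179.6 and 3482 in cabozantinib and 2739, 4032 and 3693 in foretinib. All 4 had a log2 fold change below 0 for foretinib against DMSO, with a median of -1.06, where 8069 of the 12642 tested genes were below 0. Set against tested genes in the same band of mean level, the median was -0.49. Of the 4, 0 passed the test, and the foretinib and DMSO libraries of each gene overlapped. EIF2C3 (AGO3) was at 1278, 1242 and 3.14 in foretinib, and its log2 difference from cabozantinib of -2.76 (-6.28 to 0.76) was -0.011 without replicate 4.

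Groups without overlap were counted over the family for each comparison. Foretinib and DMSO did not overlap for 3 of 57 genes (5.26%), where 11.7% of all tested genes did not. EIF1AX lay above (3.99% of all genes did), and EIF5 and EIF3I lay below (7.69%). Cabozantinib and DMSO did not overlap for 8 of 57 (14%), beside 9.9% of all tested genes. EIF1AX, EIF5B and EIF4EBP2 lay above (5.18% of all genes did), and EIF5, EIF5A2, EIF3M, EIF3F and EIF2C4 lay below (4.71%). Foretinib and cabozantinib did not overlap for 5 of 57 (8.77%), beside 14.2% of all tested genes. EEF1A2 and EIF3F lay above (4.49% of all genes did), and EIF1, EIF2S2 and EEF1E1 lay below (9.7%). The members' share was below that of all tested genes in both foretinib comparisons and above it in cabozantinib against DMSO. These gaps rest on few genes, and whether they exceed chance was not tested. The shares were also not matched by level: 9 of the 57 members had a mean below 1000, against 7154 of the 12642 tested genes. No difference between the family and the whole table is drawn from them.

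Foretinib and cabozantinib were given at the same dose and for the same time, and their 57 member genes were compared in the same model, with p-values adjusted over all 12642 genes. No member passed the test, and the 95% interval of the difference stayed inside a 2-fold change for 32 of the 57. The tightest values came from the abundant genes: the log2 difference, foretinib minus cabozantinib, was 0.17 (-0.071 to 0.40) for EEF1A1, with a value of -0.0003 after quantile normalisation. It was -0.017 (-0.29 to 0.26) for EEF2, and 0.0085 (-0.30 to 0.31) for EIF3A. The scaffold EIF4G1 had a difference of 0.092 (-0.29 to 0.48), and the repressors EIF4EBP1 and EIF4EBP2 had 0.22 (-0.16 to 0.60) and 0.050 (-0.49 to 0.59). For EIF2S1 the difference was 0.044 (-0.41 to 0.50), for EIF5A 0.18 (-0.19 to 0.55), for EEF1G 0.0094 (-0.40 to 0.42) and for EEF1D -0.066 (-0.61 to 0.48). For these genes a difference between the compounds is bounded only by those intervals. EIF4E, at -0.36 (-1.61 to 0.88), EEF1B2, at -0.53 (-1.66 to 0.60), and EEF2K, at -3.69 (-7.62 to 0.24), had intervals too wide to place either compound above the other.

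The other genes of the pathway came from a list of 49 regulators and partners, of which 46 were in the table and tested. limma-trend called 0 of the 46 at an adjusted p of 0.05 in each comparison. At an unadjusted p below 0.05, 1 (EEFSEC) was above and 5 (PAIP1, DOHH, DPH1, DPH3 and RPS6KB2) were below DMSO in foretinib, where 2.17% of all tested genes were above and 6.9% below. Against cabozantinib, foretinib had 1 (EEFSEC) above and 8 below, where 1.83% of all tested genes were above and 8.08% below. The 8 were PAIP1, DOHH, DPH1, DPH3, RPS6KB2, GFM1, MTIF3 and DEPTOR. In cabozantinib against DMSO the count was 1, DEPTOR, an inhibitory partner of mTOR, beside 1.31% of all tested genes. DEPTOR was at 0, 0 and 132 in DMSO, 183, 150.5 and 188 in cabozantinib and 0 in all 3 foretinib libraries. It entered the test only through cabozantinib, the group where it was high. Its count therefore supports nothing, either in cabozantinib against DMSO or between the drugs. These genes are named after their values were seen. The medians were -0.18, 0.025 and -0.25 in the 3 comparisons. PAIP1, which bridges the poly(A)-binding protein and eIF4A, was at 3548, 3694 and 1703 in DMSO, 2982, 1847 and 2012 in cabozantinib and 1283, 759 and 712 in foretinib. The log2 fold change for foretinib was -1.67 (adjusted p = 0.358), and the foretinib libraries lay below all others. DOHH, which completes hypusine on eIF5A, was at 571, 702 and 113 in foretinib, below the DMSO values of 1699, 987 and 2277. DHPS, which carries out the first step of that modification, overlapped in all comparisons, at 1971, 689.5 and 2495 in foretinib and 2804, 2382 and 876 in DMSO. Of the genes that make diphthamide on eEF2, DPH1 was at 3.29, 34.6 and 0 in foretinib against 555, 134 and 452 in DMSO, and DPH3 at 69.1, 711 and 786 against 1619, 1049 and 2078, both below DMSO in all 3 libraries. DPH2, at 749, 639 and 27.2 against 602, 386 and 568, and DPH5, at 1045, 136 and 9.41 against 469.96, 527 and 331, overlapped DMSO. The log2 fold change for foretinib was -5.92 for DPH1, -1.10 for DPH2, -2.16 for DPH3 and -1.93 for DPH5. These values all lay below 0, but the intervals of DPH2 (-3.89 to 1.70) and DPH5 (-5.61 to 1.76) included 0. Most low genes of the table also lay below 0 in this comparison. Of the 7154 tested genes with a mean below 1000, the level of DPH1, DPH2 and DPH5, 5192 did, with a median of -1.57. Over all tested genes it was 8069 of 12642. These enzymes modify the eIF5A and eEF2 proteins, which were not measured. The RNA of EIF5A and EEF2 had overlapping foretinib and DMSO libraries, which does not bear on those modifications. EEFSEC, the elongation factor for selenocysteine, was at 1341, 1742 and 3931 in foretinib and 1054, 204 and 1005 in DMSO. PABPC1, the poly(A)-binding protein, averaging 43745 ± 462 in DMSO, 42983 ± 2495 in cabozantinib and 43821 ± 7009.9 in foretinib, and MTOR itself, at 4189 ± 109.8, 3595 ± 301 and 3538 ± 621, did not pass the test either.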

How the data were processed

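RNA of H1155 cells was sequenced in 9 libraries, 3 per group. The authors deposited 1 table of signal values, each a gene's read count divided by the library's size factor. Per the submitters' processing notes, HTSeq, DESeq2, Cufflinks 2.2.1 and TopHat2 2.0.13 were used with the build hs37d5. The sources used here do not give strand, annotation or filters. In all 9 columns 100% of values were whole multiples of 1 step within 1e-06 of a read, so reads were recovered for count tests; for 3 columns (cabozantinib 3 and 4, DMSO 4) the step was too close to 1 for an independent check.

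The values were tested as log2(value + 1) with limma 3.58.1 in R 4.3.3, trend option, 1 model of 9 libraries without covariates, for 12642 genes at 10 or more in at least 3 libraries, with Benjamini-Hochberg adjustment over all of them and 95% intervals from that model. Fold changes are on that scale, where those of low genes depend on the pseudocount and a library near 0 weighs heavily, and intervals and depths cover reads, not molecules. Sums, shares and medians carry no test.

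Alternatives were pseudocounts of 50 and 200, no filter, a mean filter of 500, edgeR 4.0.16, DESeq2 1.42.0, quantile normalisation, TMM scaling, only the 6 libraries compared, a replicate block and leaving out each library. Statistics are given, per comparison, for the 6 members with the smallest unadjusted p, up to 4 non-overlapping members at a mean of 1000 or more with the largest change, and a fixed set from EIF4E to EEF2K; other members are described by values, and some of their intervals are shown where groups did not overlap. The members and lists were chosen with earlier results of these data known. Transcript lengths and 50-base stretches came from GENCODE 29 (GRCh38), all 65 genes matched; start sites came from RefSeq (GRCh38.p14), neither being the authors' build.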

Additional observations from a re-analysis of the deposited data

How the results depend on the processing

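Members called stayed at 0 of the tested members in each of the 3 comparisons under all 19 alternatives. The count of all genes called for foretinib against DMSO was 0, and it was 1 with a pseudocount of 200, 1 with quantile normalisation and 656 with DESeq2, which also called 49 with cabozantinib relative to DMSO and 621 between the drugs; the cause was not tested. The members' median log2 fold change for foretinib against DMSO was -0.030 with DESeq2, -0.11 with quantile normalisation, -0.10 with TMM scaling and -0.11 with a replicate block, and -0.13 to -0.014 leaving out each library. For cabozantinib against DMSO leaving out each library gave -0.017 to 0.087. For foretinib against cabozantinib the median was -0.055 with a mean filter of 500, -0.047 with edgeR, -0.012 with DESeq2, -0.16 with quantile normalisation, -0.12 with TMM scaling and -0.17 with a replicate block, and -0.11 to -0.019 leaving out each library. Its ratio of summed levels was 1.03, and 0.9998 with TMM scaling. No direction is given for the family from these medians, and that of cabozantinib against DMSO changed sign without cabozantinib replicate 5.

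The labels do not say whether the title numbers pair the libraries. Deviations of same-numbered libraries correlated at -0.002 to 0.029, and whether they share a batch was not tested. Members called were 0 both with and without the replicate block, so that count does not bear on pairing. Of 1102 settings of single named members, 1094 kept their side of the threshold and their value within the spread, and 8 moved. Leaving out 1 of 3 libraries cannot shift a value beyond that spread, and a changed filter leaves it as it was. For those settings the outcome was fixed in advance. In foretinib against DMSO, EEF2K ran from -6.02 to -0.78, EIF4E changed sign in 4 of 19 settings and EIF5 in 0. Between the drugs, EIF3A and EEF1G each changed sign in 7 of 19. The members below a mean of 3000 had intervals reaching beyond a 2-fold change, with the exception named in the text; the share of depth in this was not tested.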
